A study of Mus musculus with 20 samples.

Results

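The 10 genes described here encode the subunits of the hypoxia-inducible factors (HIFs) and the proteins that couple them to oxygen. They are the alpha subunits Hif1a, Epas1 (HIF2α) and Hif3a, the beta subunits Arnt and Arnt2, the prolyl hydroxylases Egln1, Egln2 and Egln3, the asparaginyl hydroxylase Hif1an, and Vhl, which marks hydroxylated HIFα for breakdown. They were chosen by name, with earlier results of these data known. All 10 were found by Ensembl identifier among the 47729 genes counted in each library. All 10 passed the filter on low counts, which left 18731 genes for testing; Hif3a, the lowest of them, passed through its day 0 and day 21 libraries.

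Messenger RNA was sequenced from 20 libraries of mouse kidney cells that had been sorted with magnets for the surface marker Sca1 and are labelled mesenchymal stem cell-like. Roxadustat is a small molecule that inhibits the HIF prolyl hydroxylases. The groups were control (n = 2) and roxadustat (n = 2) cells at day 0, freshly isolated, control (n = 4) and roxadustat (n = 4) cells after 7 days, and control (n = 4) and roxadustat (n = 4) cells after 21 days; per the design text, the roxadustat cells of the later days were kept in medium with the drug. The protocol text is the same for all groups and names 7 days of injections into the peritoneum at 33 mg/kg before kidney digestion, and culture at 20% oxygen, 5% CO2 and 37 °C in msc medium. Strain, age, sex, the concentration in the medium and the treatment of the mice that supplied the cultured cells are not given in the sources used here. Nothing in the labels says whether the libraries of a group came from separate mice or cultures, so p-values measure only the spread between these libraries, which may be technical.

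As background, HIF is a pair of proteins, an oxygen-labile alpha subunit and a stable beta subunit. With oxygen and 2-oxoglutarate, the EGLN enzymes hydroxylate prolines of HIFα, VHL then binds it and the proteasome destroys it, while HIF1AN (also called FIH) hydroxylates an asparagine that the coactivators p300 and CBP need unmodified. When the hydroxylases are inhibited, HIFα accumulates, pairs with ARNT and turns on genes that include Egln1 and Egln3, so the pathway makes more of its own brake. In the kidney the pathway is best known for the control of erythropoietin in interstitial cells and of glycolysis in tubules.

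Total counts ran from 8502011 to 19903160 per library. Levels are given as CPM, the counts of a gene brought to a common library total, after scaling with edgeR's trimmed mean of M values (TMM). Ly6a, which encodes the sorted marker Sca1, was present throughout but differed between arms: it had 495 to 549.8 CPM in control and 668 to 715 CPM in roxadustat libraries at day 0, 158 to 172 CPM and 479 to 525 CPM at day 7, and 161 to 199 CPM and 469 to 528 CPM at day 21. Markers went against the labelled cell type at day 0, where 10 kidney epithelium markers summed to 25487 to 28300 CPM in control and 22198 to 24012 CPM in roxadustat libraries, while 10 fibroblast markers summed to 268 to 455 CPM and 1567 to 2652 CPM. At day 21 the same fibroblast list summed to 51215 to 54148 CPM in control and 2633 to 3840 CPM in roxadustat libraries, and the epithelial list to 18.4 to 22.2 CPM and 561 to 570.0 CPM. Markers of macrophages and other leukocytes summed to 190.3 to 201 CPM in control and 257 to 345 CPM in roxadustat libraries at day 0. There 8 of 10 were called higher, beside 2.73% of all tested genes, with a spread estimated over all 6 groups. With the day 0 groups fitted alone, 19 of all 15575 genes were called higher. The leukocyte sums were 344 to 349 CPM in control and 18.0 to 19.2 CPM in roxadustat libraries at day 7, and 288 to 337 CPM and 16.8 to 19.0 CPM at day 21. Pericyte and smooth muscle markers summed to 9160 to 9531 CPM in control and 3006 to 3074 CPM in roxadustat libraries at day 7, and to 4717 to 5256 CPM and 1555 to 1675 CPM at day 21. None of these lists had a member without a count in any group, and their part in the results below was not tested. The control libraries of day 21 fell into close pairs, 1 with 2 and 3 with 4: chi-square per gene was 2.32 and 1.94 within the pairs and 16.1 to 22.0 across them. Summing each pair to 1 library, an alternative added after seeing the data, changed no call of the 10 genes.

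Of the 10 genes, 9 had a promoter entry in the RefSeq table of build GRCm38.p6 used here; Epas1 had none. The 250 bases before each start site were searched on both strands for the word ACGTG, which reads CACGT on the other strand, and for the word GCGTG, which reads CACGC there; these are the core of the hypoxia response element to which HIF binds, and 6 of the 9 genes held at least 1 match. Over the 32851 promoters of the table, 38.6% held at least 1 match and 16.7% held at least 2. A match is a description of the letters and not a binding site. The promoters of Egln1 and Egln3, called higher with roxadustat on all 3 days, of Egln2, lower at days 7 and 21, and of Hif1a are shown 5′ to 3′ on the gene's strand, with the matched words in capitals. For Egln1 the last 70 bases of the window lie in an annotated exon and are left out.
Egln1, chr8:124949325-124949504, minus strand: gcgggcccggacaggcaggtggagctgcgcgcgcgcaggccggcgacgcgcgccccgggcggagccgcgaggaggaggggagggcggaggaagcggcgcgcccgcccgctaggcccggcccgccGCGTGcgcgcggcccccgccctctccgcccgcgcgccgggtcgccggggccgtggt
Egln3, chr12:54203875-54204124, minus strand: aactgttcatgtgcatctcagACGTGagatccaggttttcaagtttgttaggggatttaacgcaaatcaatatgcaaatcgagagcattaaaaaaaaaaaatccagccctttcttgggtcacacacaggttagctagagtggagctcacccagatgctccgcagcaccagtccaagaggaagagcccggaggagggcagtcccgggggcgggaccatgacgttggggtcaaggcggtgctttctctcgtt
Egln2, chr7:27166803-27167052, minus strand: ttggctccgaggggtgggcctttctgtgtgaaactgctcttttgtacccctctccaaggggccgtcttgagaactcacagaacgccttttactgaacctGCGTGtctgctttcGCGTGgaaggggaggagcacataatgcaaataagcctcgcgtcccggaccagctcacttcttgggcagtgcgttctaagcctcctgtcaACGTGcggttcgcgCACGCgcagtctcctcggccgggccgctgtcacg
Hif1a, chr12:73907617-73907866, plus strand: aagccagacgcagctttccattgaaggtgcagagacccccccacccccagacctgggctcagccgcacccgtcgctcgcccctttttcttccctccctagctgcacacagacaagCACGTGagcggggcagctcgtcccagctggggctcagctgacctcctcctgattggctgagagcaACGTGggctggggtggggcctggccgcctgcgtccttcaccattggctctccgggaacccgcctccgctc
Egln1 held GCGTG at 126 to 122 bases before its start, and a further ACGTG at 68 to 64 in the part left out. Egln3 held 1 word, at 229 to 225 bases before its start. Egln2 held 4 words in the entry shown, beginning at 151, 137, 48 and 34 bases before the start, and 1 in a second entry. Hif1a held 3 words, of which a pair overlaps in the palindrome that begins 135 bases before the start, and the last begins 70 bases before it. Hif3a held 2 words and Arnt 1. The words thus stood before genes that rose with roxadustat and before genes that fell.

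Roxadustat was set against control at each day to ask how the genes of the oxygen-sensing pathway stood in treated cells. In freshly isolated cells 2 of the 10 genes were higher with roxadustat, Egln1 and Egln3, where 2.73% of all tested genes were called higher (edgeR quasi-likelihood test, Benjamini-Hochberg adjusted p under 0.05 over all 18731 genes). No gene of the 10 was called lower, where 4.11% of all genes were. At an unadjusted p under 0.05, 3 were lower, where an edgeR p of 0.0497 had rank 3520 among all 18731 genes in both directions. DESeq2 called 1 lower and limma voom 0, beside 839 and 808 of all 18731 genes. These calls and shares rest on a spread estimated over all 6 groups. With the day 0 groups fitted alone, edgeR called 19 of 15575 genes higher and 4 lower, and 0 of the 10. The 2 control libraries of day 0 differed more than any other pair within a group, with a chi-square per gene of 35.3. After 7 days 5 of the 10 were higher, beside 24.1% of all genes, and 4 were lower, beside 23.6%. After 21 days 3 were higher, beside 30.0%, and 5 were lower, beside 32.9%. The median log2 fold change of the 10 was -0.11 at day 0, 0.22 at day 7 and -0.17 at day 21, beside -0.01, 0.03 and 0.00 over all tested genes; at day 21 it was 0.18 with scaling by library size alone, which moved the median of all genes to 0.34. The median of day 7 stays 0.22 with Hif3a, which had no count in 1 group, at its lower bound.

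**Figure D1:**
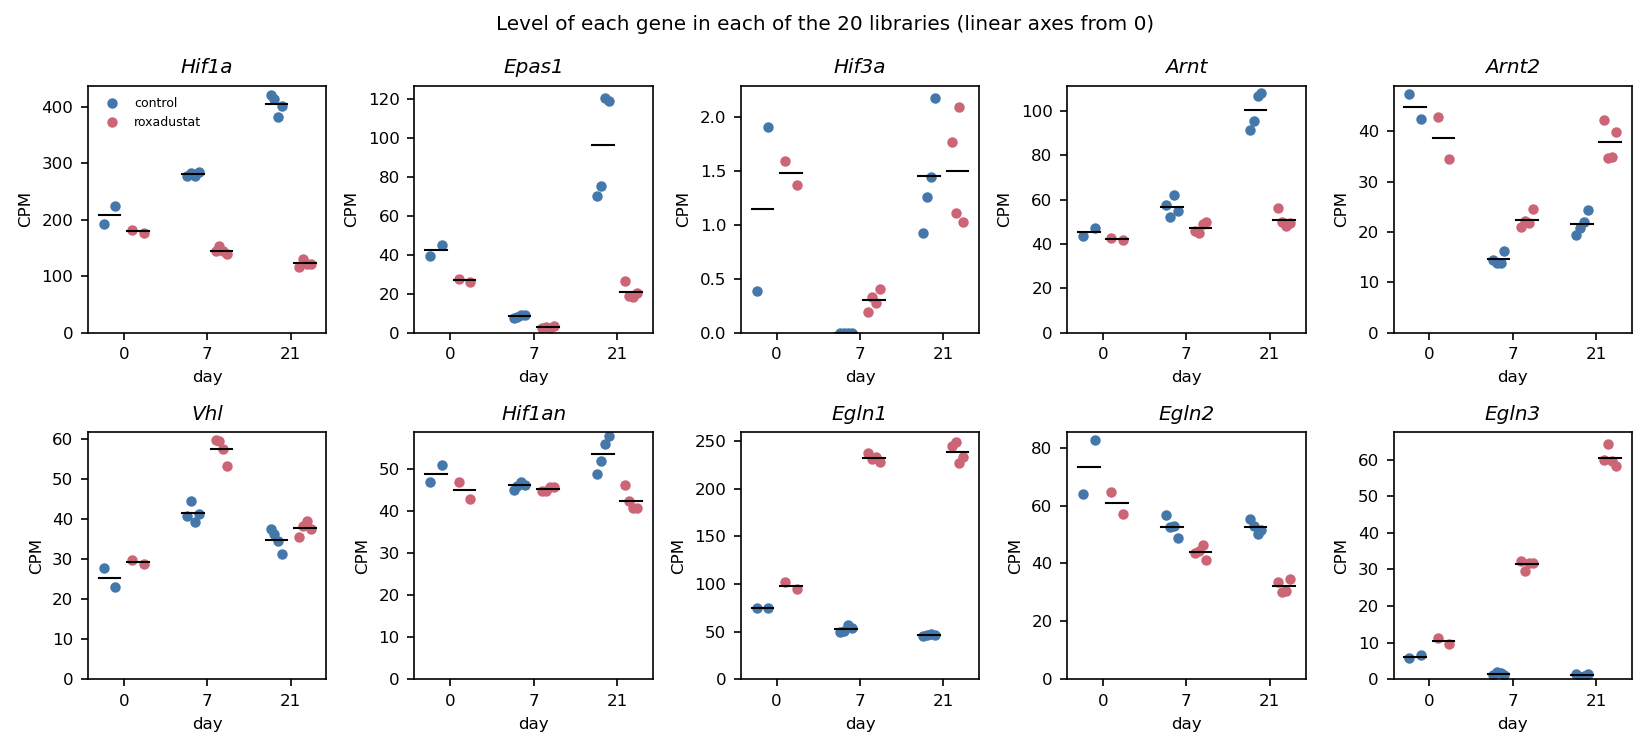
CPM (linear axes from 0) of each of the 10 genes in each of the 20 libraries, by day and arm, with the group mean as a line. Egln1 and Egln3 stand far above control in roxadustat libraries at days 7 and 21, Hif1a and Epas1 below, and Hif3a has no count in the 4 control libraries of day 7.

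Hif1a, whose product is the most widely made of the alpha subunits, was lower with roxadustat after culture. It measured 277, 283, 278 and 284 CPM in the control libraries of day 7 and 144, 153, 145 and 139 CPM in the roxadustat libraries. At day 21 the control libraries had 422, 415, 383 and 402 CPM and the roxadustat libraries 117, 131, 122 and 122 CPM. Every roxadustat library lay below every control library at both days. The log2 fold change was -0.95 ± 0.05 (SE; adjusted p = 1.35e-14, edgeR) at day 7 and -1.72 ± 0.05 (adjusted p = 5.74e-21) at day 21, so the mean was 3.29-fold lower at day 21. In fresh cells the control libraries had 192 and 224 CPM and the roxadustat libraries 182 and 177 CPM, a log2 fold change of -0.21 ± 0.07 that was not called (adjusted p = 0.0872, edgeR). That call depended on the tool and on a library: DESeq2 gave an adjusted p of 0.0384, and without control replicate 1 the value was -0.33 with an adjusted p of 0.00815, in a range of 0.00815 to 0.593 over the alternatives. In bulk libraries fewer cells of a type and less RNA per cell cannot be told apart, here and for every gene below. Of the exon bases of Hif1a, 5.6% are shared with the antisense gene Gm15283, which had 22 to 131 counts per library, and the library type does not separate strands.

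Epas1 encodes the alpha subunit best known from endothelium and kidney interstitium, and it showed the widest swing with time of the alpha subunits that were well counted. Control libraries had 39.6 and 45.3 CPM at day 0, 7.76, 7.81, 8.93 and 9.23 CPM at day 7, and 70.4, 75.3, 121 and 119 CPM at day 21. Roxadustat libraries had 27.8 and 26.2 CPM at day 0, 2.11, 3.02, 2.56 and 3.62 CPM at day 7, and 26.5, 18.7, 18.5 and 20.3 CPM at day 21. The arms did not overlap on any day, and the high and low control values of day 21 followed the close pairs of libraries. Epas1 was lower with roxadustat by a log2 fold change of -1.57 ± 0.26 (adjusted p = 0.000105, edgeR) at day 7 and -2.19 ± 0.18 (adjusted p = 1.09e-08) at day 21. At day 0 the value was -0.65 ± 0.25 and was not called (adjusted p = 0.157, edgeR), though with no filter on low counts it was -0.67 with an adjusted p of 3.22e-07, in a range of 3.22e-07 to 0.417 over the alternatives. The sum of 10 endothelial markers was lower with roxadustat on each day: it was 265 to 302 CPM in control and 161 to 165 CPM in roxadustat libraries at day 0, 91.5 to 98.1 CPM and 39.0 to 47.5 CPM at day 7, and 313 to 355 CPM and 92.5 to 100.2 CPM at day 21. The single markers did not all follow the sum. At day 0, 9 of 10 were called lower, beside 4.11% of all tested genes, with a spread estimated over all 6 groups. With the day 0 groups fitted alone, 4 of all 15575 genes were called lower. At day 7 there were 4 lower and 3 higher, beside 23.6% and 24.1%, with a list median of 0.59. At day 21 there were 5 lower and 0 higher, beside 32.9% and 30.0%. The VEGF receptor gene Flt1 made up the largest part of the sum after culture, at means of 67.1 CPM in control and 19.9 CPM in roxadustat cells at day 7. There Eng had 16.3 CPM in both arms, while Tek had 0.488 CPM in control and 3.09 CPM in roxadustat cells. In the control cells of day 21 Flt1 had 257, Eng 48.6, Emcn 16.7 and Kdr 6.49 CPM, and Pecam1, Cdh5 and Tie1 were near 0, at 0.0636, 0.0727 and 0.0749 CPM.

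Hif3a, whose product may restrain the other alpha subunits in some of its spliced forms, was barely counted. Control libraries had 0.389 and 1.91 CPM at day 0 and 0.921, 1.26, 1.44 and 2.18 CPM at day 21, and no count in any of the 4 libraries of day 7. Roxadustat libraries had 1.59 and 1.37 CPM at day 0, 0.192, 0.330, 0.273 and 0.407 CPM at day 7 and 1.77, 1.11, 2.09 and 1.03 CPM at day 21. The arms overlapped at days 0 and 21 and were apart at day 7, where roxadustat libraries held 25 counts in all. The adjusted p at day 7 was 0.000928 (edgeR), for the fitted change and not for a bound. Taking 3 counts summed over the control libraries as the floor, Hif3a was at least 7.13-fold higher with roxadustat at day 7. With 1 library left out, this bound for Hif3a ran from 5.24-fold to 8.01-fold. At day 21 its log2 fold change was 0.00 ± 0.33 (adjusted p = 1.00, edgeR) and at day 0 it was 0.37 ± 0.51 (adjusted p = 0.777).

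The beta subunits moved apart. Arnt, the common partner of all alpha subunits, had 57.8, 52.1, 62.2 and 54.8 CPM in control and 45.8, 44.9, 49.1 and 49.7 CPM in roxadustat libraries at day 7. At day 21 it had 91.5, 95.6, 107 and 108 CPM in control and 56.3, 50.1, 48.3 and 49.4 CPM in roxadustat libraries. The arms did not overlap on either day, and Arnt was lower with roxadustat by a log2 fold change of -0.26 ± 0.07 (adjusted p = 0.00173, edgeR) and -0.97 ± 0.07 (adjusted p = 3.23e-13). Arnt2, a close relative known mainly from nervous tissue, went the other way. It had 14.5, 13.8, 13.9 and 16.2 CPM in control and 21.0, 22.1, 21.8 and 24.5 CPM in roxadustat libraries at day 7, then 19.3, 20.8, 21.9 and 24.4 CPM against 42.3, 34.6, 34.9 and 39.9 CPM at day 21. All roxadustat libraries lay above all control libraries of their day, with log2 fold changes of 0.61 ± 0.09 (adjusted p = 1.97e-06, edgeR) and 0.82 ± 0.09 (adjusted p = 3.41e-09). At day 0 neither was called, with Arnt at 43.6 and 47.3 CPM in control and 42.9 and 41.8 CPM in roxadustat libraries, and Arnt2 at 47.3 and 42.5 CPM and 42.8 and 34.4 CPM. Of the exon bases of Arnt2, 2.78% are shared with the antisense gene Gm30873, which had 8 to 46 counts per library.

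Among the prolyl hydroxylases, Egln1 and Egln3 were the only 2 of the 10 genes called higher with roxadustat on all 3 days. Egln1 encodes PHD2, the main oxygen sensor of most cells. It had 75.1 and 74.5 CPM in control and 102 and 94.6 CPM in roxadustat libraries at day 0. It had 49.1, 50.6, 57.2 and 53.2 CPM in control and 238, 231, 233 and 228 CPM in roxadustat libraries at day 7, and 45.2, 46.5, 46.9 and 46.5 CPM against 245, 249, 227 and 233 CPM at day 21. The arms were apart on every day, narrowly in fresh cells and widely after culture. The rise was 1.32-fold at day 0 (log2 fold change 0.40 ± 0.07, adjusted p = 0.000683, edgeR), 4.42-fold at day 7 (2.15 ± 0.05, adjusted p = 1.74e-22) and 5.16-fold at day 21 (2.37 ± 0.05, adjusted p = 3.39e-24).

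Egln3 encodes PHD3, the hydroxylase whose transcript is the most inducible by HIF, and it started from a low level. Control libraries had 5.71 and 6.58 CPM at day 0, 1.23, 1.90, 1.57 and 1.18 CPM at day 7, and 1.29, 0.540, 0.878 and 1.41 CPM at day 21. Roxadustat libraries had 11.3 and 9.66 CPM at day 0, 32.4, 29.7, 31.9 and 31.8 CPM at day 7, and 60.0, 64.3, 59.7 and 58.4 CPM at day 21. No roxadustat library came near a control library after culture. The rise was 1.71-fold at day 0 (log2 fold change 0.78 ± 0.16, adjusted p = 0.00242, edgeR), 21.2-fold at day 7 (4.41 ± 0.12, adjusted p = 5.05e-21) and 58.9-fold at day 21 (5.88 ± 0.13, adjusted p = 3.76e-24). Among the fitted rises of all tested genes Egln3 ranked 33 at day 7 and 144 at day 21, and Egln1 ranked 356 and 1468. The calls of fresh cells were the weakest: with the 4 libraries of day 0 fitted alone, Egln1 was at 0.41 (adjusted p = 0.172, edgeR) and Egln3 at 0.79 (adjusted p = 0.179), and without roxadustat replicate 1 Egln3 was at 0.64 (adjusted p = 0.0784). Over the alternatives, adjusted p ranged from 9.47e-07 to 0.172 for Egln1 and from 4.79e-05 to 0.179 for Egln3 at day 0.

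Egln2 encodes PHD1, the member of the family whose transcript is not known as a HIF target. It had 56.7, 52.6, 52.8 and 48.8 CPM in control and 43.8, 44.2, 46.5 and 41.3 CPM in roxadustat libraries at day 7, and 55.3, 53.1, 50.2 and 51.6 CPM against 33.7, 30.2, 30.5 and 34.7 CPM at day 21. The arms did not overlap, and Egln2 was lower with roxadustat by a log2 fold change of -0.26 ± 0.07 (adjusted p = 0.00322, edgeR) at day 7 and -0.70 ± 0.07 (adjusted p = 3.46e-09) at day 21. At day 0 the control libraries, at 64.0 and 82.7 CPM, overlapped the roxadustat libraries, at 64.8 and 57.0 CPM, and the value of -0.27 ± 0.10 was not called (adjusted p = 0.118, edgeR). Without control replicate 1 it was -0.45 with an adjusted p of 0.00454, in a range of 0.00454 to 0.808 over the alternatives.

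**Figure D2:**
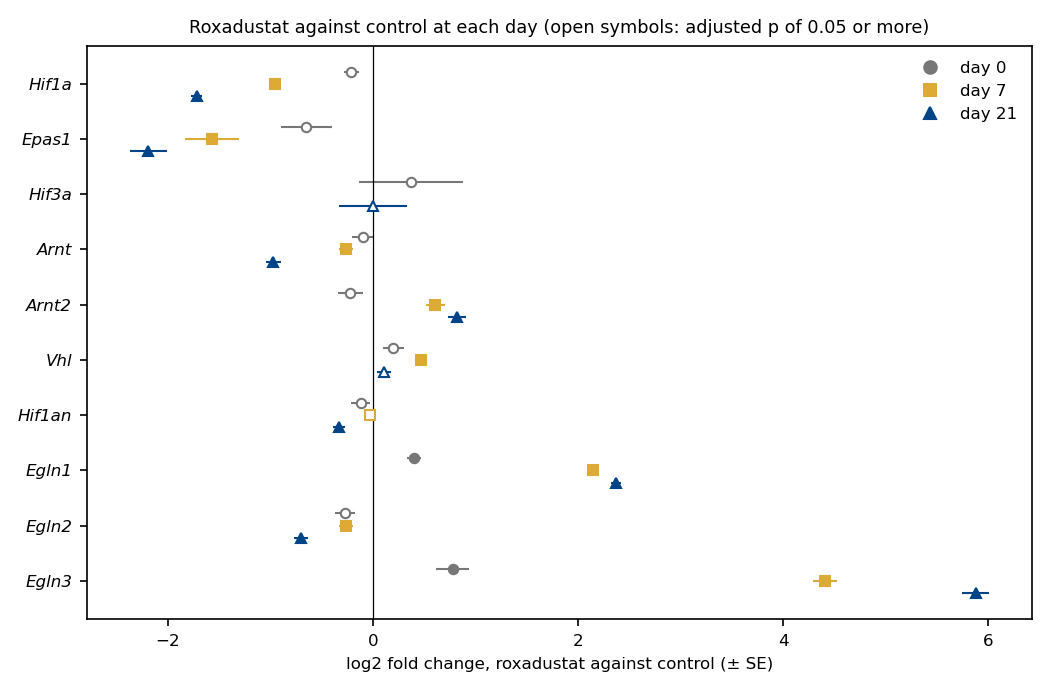
Log2 fold change of roxadustat against control (x axis, ± SE from edgeR) for each gene at days 0, 7 and 21; open symbols have an adjusted p of 0.05 or more, and Hif3a at day 7 is not drawn because its control libraries had no count. Egln3 reaches 5.88 and Egln1 2.37 at day 21, while Hif1a is at -1.72 and Epas1 at -2.19.

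Hif1an, the asparaginyl hydroxylase that blocks the transactivation domain of HIFα, was the steadiest of the 10 genes with TMM scaling. Its 8 libraries of day 7 lay between 44.6 and 46.8 CPM, with both arms overlapping and a log2 fold change of -0.03 ± 0.06 (adjusted p = 0.724, edgeR). At day 21 it had 48.6, 51.8, 55.9 and 57.7 CPM in control and 46.1, 42.2, 40.6 and 40.6 CPM in roxadustat libraries, a log2 fold change of -0.33 ± 0.06 (adjusted p = 2.16e-05, edgeR). That difference was 0.01 (adjusted p = 0.841) with scaling by library size alone, in a range of 1.64e-06 to 0.841 over the alternatives. At day 0 the control libraries had 46.7 and 50.9 CPM and the roxadustat libraries 46.8 and 42.8 CPM, which was not called (adjusted p = 0.499, edgeR).

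Vhl, the substrate receptor of the ubiquitin ligase, differed at day 7. It had 40.8, 44.7, 39.4 and 41.3 CPM in control and 59.9, 59.5, 57.6 and 53.4 CPM in roxadustat libraries, with no overlap and a log2 fold change of 0.47 ± 0.06 (adjusted p = 7.14e-07, edgeR). At day 21 the control libraries, at 37.6, 36.4, 34.5 and 31.2 CPM, overlapped the roxadustat libraries, at 35.7, 38.3, 39.5 and 37.5 CPM, and the value of 0.11 ± 0.07 was not called (adjusted p = 0.173, edgeR). Other scalings called it: 0.46 with library size alone (adjusted p = 2.69e-06) and 0.19 with the upper quartile (adjusted p = 0.0180), in a range of 2.69e-06 to 0.496. At day 0 Vhl had 27.7 and 23.1 CPM in control and 29.7 and 28.7 CPM in roxadustat libraries (0.20 ± 0.10, adjusted p = 0.290, edgeR).

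To compare genes with each other, counts were divided by the length of the exons, as CPM per kilobase, TMM-scaled. On this scale Hif1a was the highest of the 10 genes in all 3 control groups, at means of 35.2 ± 3.80 (SD, n = 2), 47.6 ± 0.601 (n = 4) and 68.8 ± 2.93 (n = 4) per kilobase at days 0, 7 and 21, and in roxadustat cells of day 0, at 30.4 ± 0.555 (n = 2). In roxadustat cells Egln1 stood first at day 7, at 64.7 ± 1.17 per kilobase, and at day 21, at 66.4 ± 2.84, with no overlap with the next gene. Egln3 rose in this order from place 9 in every control group to place 5 at day 7 and place 2 at day 21 in roxadustat cells, where its 22.8 ± 0.966 per kilobase overlapped Hif1a at 20.9 ± 1.04. Hif3a was last in every group, at 0.224 per kilobase or less. In the control cells of day 21, Egln2, Epas1, Egln1, Arnt and Vhl followed each other between 10.4 and 21.6 per kilobase, and the range of each overlapped that of the next, so neighbours in this order were not resolved.

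The prolyl hydroxylase family changed in both sum and make-up. Summed over the 3 genes per kilobase, it went from 34.0 ± 1.15 (SD, n = 4) in control to 92.2 ± 1.80 (n = 4) in roxadustat cells at day 7 and from 32.0 ± 0.614 to 101 ± 3.49 at day 21, beside 49.3 ± 4.84 (n = 2) and 53.1 ± 3.87 (n = 2) at day 0. Egln2 was the largest share in every control group, at 52.9%, 55.4% and 58.6% of the sum at days 0, 7 and 21. At days 0 and 7 this lead rests on the exon lengths used, 2800 bases for Egln2 and 3594 for Egln1. In counts, the mean log2 ratio of Egln2 to Egln1 in control cells was -0.04, 0.01 and 0.18 on the 3 days. In roxadustat cells the share of Egln2 was 41.0%, 17.0% and 11.5%, while Egln1 took 51.6%, 70.2% and 65.9% and Egln3 took 7.42%, 12.8% and 22.6%. In control cells Egln3 took 4.68%, 1.62% and 1.20%. The ratio of Egln3 to Egln1 counts within a library, which needs no scaling between libraries, was higher with roxadustat in 4 of 4 libraries by 2.27 on the log2 scale at day 7 and by 3.56 at day 21. The ratio of Egln2 to Egln1 was lower by 2.41 and 3.07 on the log2 scale (roxadustat minus control -2.41 and -3.07). Each of these 4 differences gave an exact two-sided permutation p of 0.0286, the smallest that 4 against 4 libraries allow, and 0.0343 after adjustment over the 6 ratio tests. At day 21 these tests treat the 4 control libraries as separate, though they fell into close pairs. Summing the pairs was not tried for the ratios, and fewer libraries would not allow so small a p.

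The alpha subunits shrank in sum with roxadustat, while Hif1a kept the largest share. Per kilobase the sum of the 3 genes was 49.1 ± 0.658 in control and 25.2 ± 0.965 in roxadustat cells at day 7, and 86.2 ± 2.68 and 24.9 ± 0.649 at day 21 (SD, n = 4 each). Hif1a made up 96.9% and 97.8% of it at day 7, and 79.9% and 84.0% at day 21. The log2 ratio of Epas1 to Hif1a counts was lower with roxadustat by 0.64 at day 7 (roxadustat minus control -0.64, exact two-sided permutation p = 0.0286, adjusted over 6 tests 0.0343), with all 4 roxadustat libraries below all 4 control libraries. At day 21 the difference was -0.45 and the arms overlapped (exact permutation p = 0.171). Without any 1 of the control libraries of day 7 the difference there was -0.68 to -0.60 with an exact permutation p of 0.0571. Among the beta subunits Arnt2 held 21.2% of the summed per-kilobase level in control and 32.9% in roxadustat cells at day 7, and 18.3% and 43.6% at day 21, beside 50.7% and 48.5% at day 0.

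**Figure D3:**
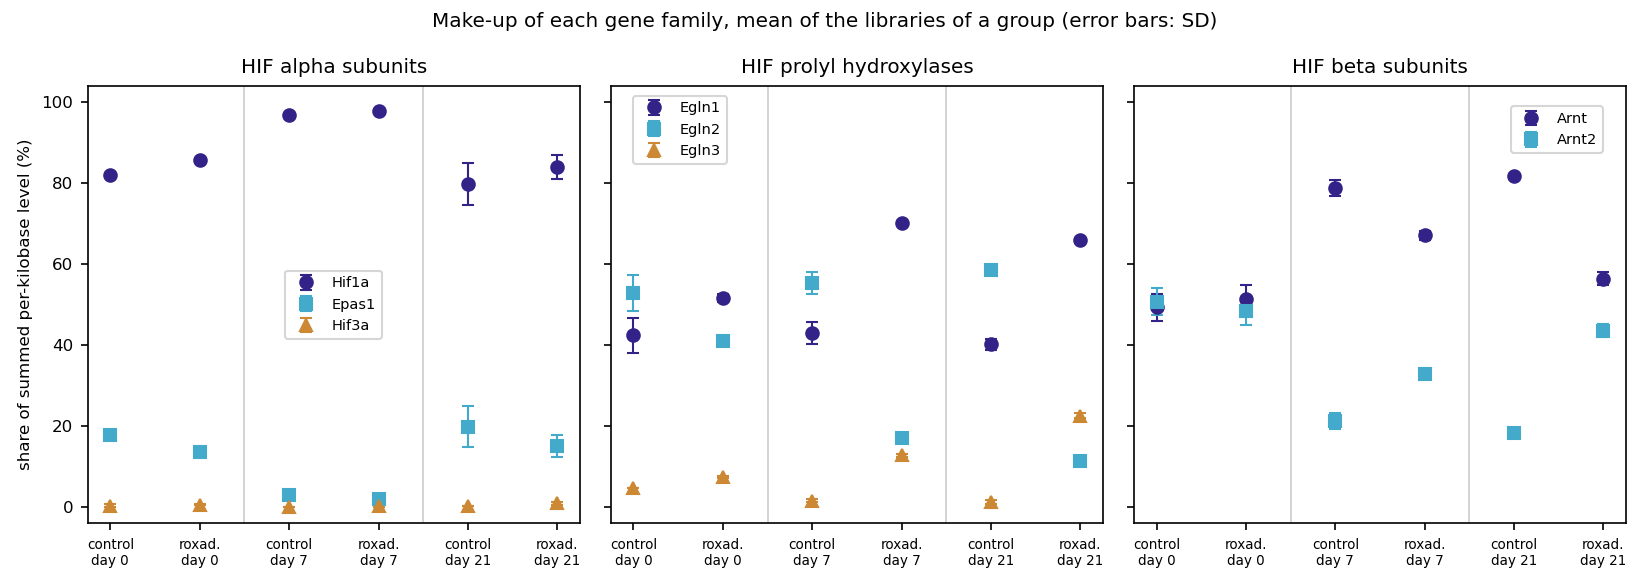
Share of each gene in the summed per-kilobase level of its family (y axis, percent; mean of the libraries of a group, error bars SD) in the 6 groups. Egln2 is the largest share of the prolyl hydroxylases in each control group and Egln1 in each roxadustat group, and Arnt2 falls from 50.7% of the beta subunits in fresh control cells to 18.3% at day 21.

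**Figure D4:**
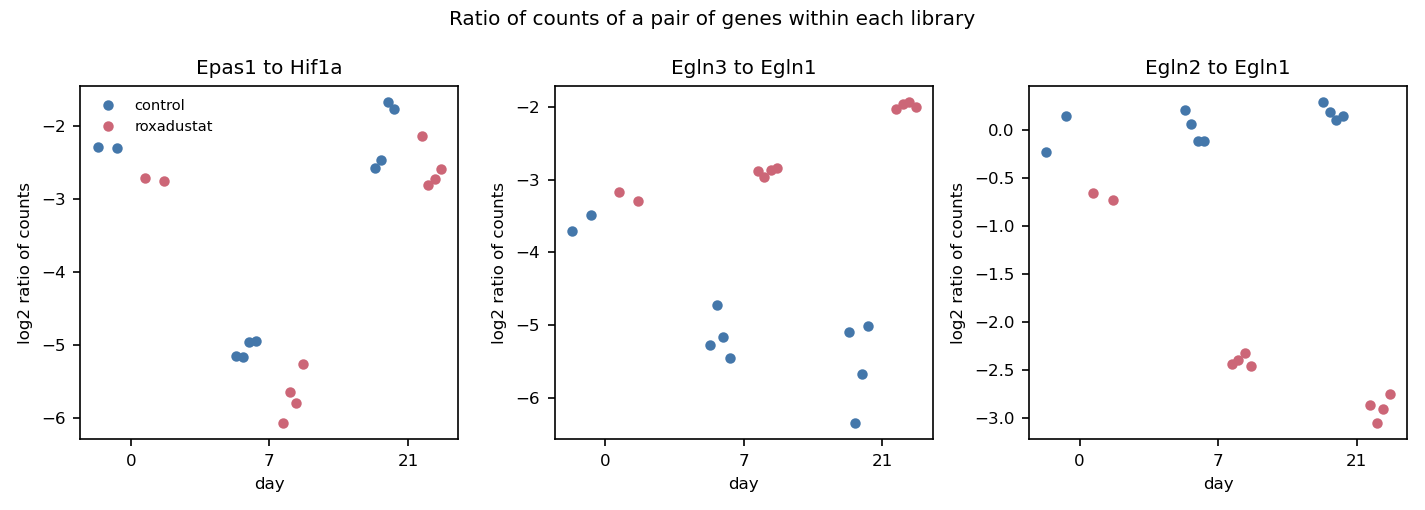
Log2 ratio of counts of a pair of genes within each of the 20 libraries, by day and arm. Egln3 to Egln1 is higher and Egln2 to Egln1 lower in every roxadustat library than in every control library of the same day, while Epas1 to Hif1a overlaps between arms at day 21.

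The days were compared within each arm to see how the pathway stood as the cells went through culture. From day 0 to day 7 in control cells 3 of the 10 genes rose (Hif1a, Arnt and Vhl), beside 37.0% of all tested genes, and 6 fell, beside 39.5%. Egln3 fell 4.15-fold, Epas1 5.02-fold and Arnt2 3.08-fold, and Hif3a was at least 26.9-fold lower, a bound that rests on control replicate 2 of day 0: it was 9.15-fold without that library and 44.9-fold without replicate 1. In roxadustat cells 3 rose over the same time, beside 37.1%, and 5 fell, beside 37.6%: here Egln1 rose 2.36-fold (log2 fold change 1.24 ± 0.06), Egln3 rose 2.99-fold (1.58 ± 0.12) and Vhl rose 1.97-fold. Hif1a fell by 0.30 on the log2 scale in roxadustat cells (adjusted p = 0.000110, edgeR), but the value was 0.13 and not called with library size alone (adjusted p = 0.0758, within 6.41e-10 to 0.0758 over the alternatives). With that scaling, which moved the median of all genes to 0.40 in control and 0.46 in roxadustat cells, the falls of Egln2 in both arms and of Egln1 in control cells also lost their call. Rises called only with it among these values were those of Hif1an in control (0.34) and roxadustat cells (0.45). It also called a rise of Arnt in roxadustat cells (0.60).

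From day 7 to day 21 in control cells 6 genes rose, beside 34.5% of all tested genes, and 3 fell, beside 34.3%. Epas1 rose 11.4-fold, Arnt 1.77-fold and Hif1a 1.45-fold. Hif3a was at least 33.5-fold higher, a bound that ran from 24.6-fold to 37.9-fold with 1 library left out. The fall of Egln3 in control cells, from a mean of 1.47 to 1.03 CPM, was the weakest of these calls (log2 fold change -0.52 ± 0.22, adjusted p = 0.0392, edgeR) and had an adjusted p over 0.05 in 8 of 19 alternatives, with adjusted p from 0.00510 to 0.292; the libraries whose removal ended it were control replicates 2 (-0.38) and 3 (-0.49) of day 7 and 2 (-0.29) and 3 (-0.47) of day 21. In roxadustat cells 4 genes rose, beside 28.6%, and 3 fell, beside 32.9%. Epas1 rose 7.37-fold, Hif3a 4.64-fold, Egln3 1.93-fold and Arnt2 1.70-fold, while Vhl fell by 0.61, Egln2 by 0.44 and Hif1a by 0.24 on the log2 scale. Egln1 was not called, with a log2 fold change of 0.04 ± 0.05 (adjusted p = 0.515, edgeR), though scaling by the upper quartile called a rise of 0.13 (adjusted p = 0.0194, in a range of 0.0194 to 1.00 over the alternatives). Epas1 thus had its lowest level at day 7 in both arms.

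The size of the roxadustat effect was compared between days with an interaction term. The step from day 0 to day 7 sets fresh cells against cultured cells, which in the roxadustat arm were kept in medium with the drug. The marker sums changed as well. Time, culture, exposure in the medium and cell make-up cannot be told apart in that step. From day 0 to day 7, 4 genes had a higher effect, beside 15.5% of all tested genes, and 1 a lower effect, beside 13.4%. The effect on Egln3 grew by 3.63 ± 0.22 (adjusted p = 4.34e-13, edgeR) and that on Egln1 by 1.75 ± 0.09 (adjusted p = 1.19e-14) on the log2 scale, while the effect on Hif1a went 0.74 further down (-0.74 ± 0.09, adjusted p = 3.20e-07). From day 7 to day 21, 2 genes had a higher effect, beside 20.9%, and 6 a lower effect, beside 23.8%. The effect on Egln3 grew by a further 1.47 ± 0.24 (adjusted p = 7.89e-06, edgeR), that on Egln1 by 0.22 ± 0.07 (adjusted p = 0.0127), and that on Hif1a fell by a further 0.77 (-0.77 ± 0.07, adjusted p = 1.06e-09). The effect on Epas1 did not pass the test in either step, at -0.92 ± 0.37 (adjusted p = 0.0751, edgeR) and -0.62 ± 0.33 (adjusted p = 0.139). DESeq2 called the former, at -0.96 with an adjusted p of 0.00807, in a range of 9.38e-07 to 0.189 over the alternatives. The latter was -0.75 with an adjusted p of 0.0436 without control replicate 1 of day 21, in a range of 0.000107 to 0.404.

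The neighbours of the 10 genes in the pathway are given from lists chosen by function, with earlier results of these data known. The 8 partners of VHL in the ubiquitin ligase gave 0 calls at day 0 by edgeR, DESeq2 and limma voom, and 0 at an unadjusted p under 0.05. At day 7, 5 were lower and 0 higher with roxadustat, also 0 higher by DESeq2, limma voom and at an unadjusted p under 0.05, beside 23.6% of all genes lower and 24.1% higher, with a list median of -0.18 beside 0.03 over all genes. Elongin C (Eloc), which VHL binds, went from 107 to 67.1 CPM (-0.67 ± 0.07, adjusted p = 4.22e-09, edgeR), and the NEDD8-conjugating enzyme Ube2m from 136 to 107 CPM (-0.34 ± 0.06). At day 21, 6 were lower and 0 higher, beside 32.9% and 30.0% of all genes. The counts were the same by DESeq2, limma voom and an unadjusted p under 0.05. Elongin B (Elob) went from 95.2 to 57.8 CPM (-0.72 ± 0.08, adjusted p = 8.18e-09, edgeR). But with scaling by library size alone 3 were higher and 1 lower, where 9372 of all 18731 genes were called higher and 3549 lower. The day 21 calls of Rbx1 (-0.48) and Cand1 (-0.38) were lost with that scaling, at -0.13 and -0.03.

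Of 14 regulators of the stability of HIF and the hydroxylases, 0 were called at day 0 by edgeR. At an unadjusted p under 0.05, 2 were higher, where an edgeR p of 0.0497 had rank 3520 among all 18731 genes in both directions. DESeq2 and limma voom called 1 higher each, beside 548 and 558 of all 18731 genes. At day 7, 3 were higher and 6 lower, beside 24.1% of all genes higher and 23.6% lower. With library size alone there were 7 and 5, where 5366 of all 18731 genes were called higher and 3648 lower. At day 21, 5 were higher and 5 lower, beside 30.0% and 32.9% of all genes, so the share of the list was near that of all genes. With library size alone there were 9 and 1, where 9372 of all genes were called higher and 3549 lower. Rack1, which can direct HIFα to breakdown without VHL, was lower, from 1286 to 827 CPM at day 7 (-0.64 ± 0.06) and from 879 to 462 CPM at day 21 (-0.93 ± 0.06, adjusted p = 2.40e-13, edgeR). Usp20, a deubiquitinase that opposes VHL, was higher, from 25.0 to 42.5 CPM at day 7 and from 19.6 to 52.4 CPM at day 21 (1.42 ± 0.09, adjusted p = 2.70e-14, edgeR). Siah2, a ligase for EGLN proteins, was higher at day 21, from 9.36 to 19.8 CPM (1.09 ± 0.09), and Siah1b was lower at day 7, from 6.03 to 3.16 CPM (-0.93 ± 0.14). Of 11 coactivators and transcriptional brakes, 0 were called at day 0 by edgeR, DESeq2 and limma voom. At an unadjusted p under 0.05, 2 were lower, where an edgeR p of 0.0497 had rank 3520 among all 18731 genes in both directions. At day 7, 3 were higher and 1 lower, beside 24.1% and 23.6% of all genes. At day 21, 5 were higher and 0 lower, beside 30.0% and 32.9% of all genes, and 0 were lower by DESeq2, limma voom and an unadjusted p under 0.05 as well. With library size alone there were 9 and 0, where 9372 of all 18731 genes were called higher and 3549 lower. Pkm, a glycolytic enzyme whose M2 form binds HIF1α, went from 824 to 2207 CPM at day 7 (1.42 ± 0.08, adjusted p = 1.71e-14, edgeR) and from 491 to 1467 CPM at day 21 (1.58 ± 0.08, adjusted p = 3.90e-16). Sirt6, a deacetylase that restrains HIF target genes, went from 8.31 to 11.4 CPM at day 7 (0.46 ± 0.10) and was higher at day 21 (0.38 ± 0.10). Cited4 was under 1 CPM after culture and was not called at day 7 (1.02 ± 0.51, adjusted p = 0.109, edgeR), though without control replicate 2 it was called at 1.56. The kinase gene Cdk8 was lower at day 7 (-0.29 ± 0.07) and higher at day 21 (0.23 ± 0.07), and Ncoa1 was higher at day 21 (0.27 ± 0.08). Cited2, a HIF-induced competitor for p300, went from 27.2 to 37.2 CPM at day 7 (0.46 ± 0.11) and from 25.4 to 66.2 CPM at day 21 (1.39 ± 0.11, adjusted p = 1.06e-10, edgeR).

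Of 10 HIF target genes outside oxygen sensing, a list picked with the results of these libraries known, 7 were higher at day 0, beside 2.73% of all genes, and 10 at days 7 and 21, beside 24.1% and 30.0%. Each of the scalings tried gave the same counts, except that library size alone gave 8 at day 0. With library size alone 699, 5366 and 9372 of all 18731 genes were called higher at days 0, 7 and 21. At day 0, edgeR and limma voom called 0 of this list lower, DESeq2 called 1, beside 839 of all 18731 genes, and 1 was lower at an unadjusted p under 0.05. The median log2 fold change of the list was 0.96, 3.58 and 3.11 at days 0, 7 and 21. Pdk1, the kinase that shuts pyruvate out of mitochondria, went from 101 to 211 CPM at day 0, from 8.97 to 305 CPM at day 7 and from 16.8 to 247 CPM at day 21. Ndufa4l2, which lowers the activity of respiratory complex I, went from 0.425 to 1.44 CPM, from 1.04 to 92.2 CPM and from 1.95 to 47.1 CPM on the same days. The glucose transporter gene Slc2a1 was not called at day 0 (-0.25 ± 0.08, adjusted p = 0.0627, edgeR) and was higher at day 7 (2.36 ± 0.06) and day 21 (3.01 ± 0.06), and Ankrd37 was higher by 1.32 ± 0.20, 4.70 ± 0.19 and 4.28 ± 0.19. Egln1, with 0.40, 2.15 and 2.37, lay below the median of this list on each day, and Egln3, with 0.78, 4.41 and 5.88, lay below it at day 0 and above it at days 7 and 21.

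For each of the 10 genes the 3 genes most like it in pattern were taken by Pearson's r of log2 CPM over the 20 libraries, among the 11337 other genes with a mean of at least 5 CPM, or 11338 for Hif3a, which lies under that level itself. The 20 points fall into 6 groups and share their scaling, so r mainly follows the group means and is a description. Egln1 and Egln3 shared their closest gene, Bbx, at r of 0.989 and 0.988, and both had Slc2a1 among their 3, at 0.982 and 0.981. Hif1a was closest to Slfn2 (0.983), Epas1 to Phlpp1 (0.978), Arnt to Sntb2 (0.979), Arnt2 to Rhbdd2 (0.978), Egln2 to Ptms (0.974) and Vhl to Itm2a (0.973). Hif3a was closest to Tle3 (0.961). Hif1an, which varied least, had the weakest likeness, 0.918 to Mov10.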

How the data were processed

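Raw read counts per gene, 1 table per library, were deposited by the authors. The tools bcl2fastq, STAR 2.5.2a and featureCounts 1.5.0-p1 and the build mm10 are named in the submitters' processing notes; the annotation release and counting settings are not given in the sources used here. The library kit did not keep strand, per the labels' protocols, so a gene and its antisense partner cannot be told apart. Of 47729 genes per table, 47224 matched GENCODE M21, which gave symbols, coordinates and exon lengths.

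The main test was edgeR 4.0.16 (R 4.3.3, robust quasi-likelihood F test, filterByExpr, TMM) on all 20 libraries in 1 model of 6 groups, with Benjamini-Hochberg adjustment over 18731 genes and a threshold of 0.05; SE is the log2 fold change over the root of F. DESeq2 1.42.0 and limma 3.58.1 (voom) were alternatives, with other scalings, filters, a replicate block, only the groups compared, and each library left out. The bounds of Hif3a without each library were added after the data were seen. Ratios used counts plus 0.5. Scripts were tested on simulated counts. Recovery of known changes there was lowest at day 0, with 2 libraries a group, and the limit for passing was relaxed after a first simulation for that reason, so a gene not called at day 0 may still differ. The 10 genes were named in every comparison; from each other list up to 2 called genes of smallest p and up to 2 of largest fold, at days 7 and 21, were named. The endothelial marker genes, and genes of a list outside this rule (among them Cdk8, Ncoa1, Arntl, Npas1, Npas2, Clock, Ado, D2hgdh, Ogdh and Idh3g), were named after their values were seen. The genes and lists were chosen with earlier results of these data known. Replicate numbers did not pair the libraries: of 42 same-numbered pairs across groups, 2 had deviations correlated over 0.1 (median r 0.00304).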

Additional observations from a re-analysis of the deposited data

Results flagged for a closer look

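The roxadustat effect differed between days, by an interaction test in edgeR, for 5 of the 10 genes from day 0 to day 7 and for 8 from day 7 to day 21. Of all tested genes, 15.5% had a higher and 13.4% a lower effect in the former step, and 20.9% and 23.8% in the latter. From day 0 to day 7 the log2 effect changed by -0.74 for Hif1a, 0.83 for Arnt2 (adjusted p = 7.54e-05), 1.75 for Egln1 and 3.63 for Egln3. The fitted change of 5.00 for Hif3a depends on the prior count, since its control libraries of day 7 had no count, and without control replicate 2 of day 0 it was 3.48 with an adjusted p of 0.0639, in a range of 0.000167 to 0.0639 over the alternatives.

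From day 7 to day 21 the log2 effect changed by -0.77 for Hif1a, -0.71 for Arnt (adjusted p = 3.24e-07), -0.36 for Vhl (0.00228), -0.31 for Hif1an (0.00388) and -0.44 for Egln2 (0.000893), and by 0.22 for Egln1 and 1.47 for Egln3. For Hif3a it was -5.38, again a value that depends on the prior count. With library size alone the changes of Vhl, Hif1an and Egln2 were -0.08, -0.02 and -0.16 and were not called. The value of Egln1 was 0.20 and was not called with no filter on low counts (adjusted p = 0.118, in a range of 1.08e-06 to 0.118). No library stood apart by Dixon's test in the 39 groups of 4 libraries with a spread, where chance gives about 1 in 20. That test looks for a lone library, so it could not flag a split into pairs such as that of the control libraries of day 21.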

How the results depend on the processing

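Under the alternatives, 1627 of 1679 recomputed fold changes of the 10 genes kept their side of the threshold. Of these 1555 kept their sign, 63 rounded to no change in either value, and 9 that were called in neither had the opposite sign: 8 of Hif1an, and Hif3a at day 0, at -0.37 without control replicate 1 against 0.37. Of the rest, 22 lost a call, 27 gained 1 and 3 with a call reversed, all 3 with scaling by library size alone: Hif1an at day 21 (0.01), Hif1an from day 0 to day 7 in control cells (0.34), and Hif1a from day 0 to day 7 in roxadustat cells (0.13). That scaling raised the share of called genes that were higher from 47.7% to 72.5% at day 21, from 39.9% to 57.2% at day 0, from 48.3% to 61.6% and 49.7% to 64.6% from day 0 to day 7 in control and roxadustat cells, and from 46.8% to 72.2% for the change in effect from day 7 to day 21, and lowered it from 50.1% to 38.3% from day 7 to day 21 in control cells. At day 0, 2 of the 10 genes were called; the groups compared alone gave 0 by edgeR, with 3 at an unadjusted p under 0.05, and leaving out a library gave 1 to 4. The log2 ratio of Epas1 to Hif1a at day 7 ranged from -0.79 to -0.52 without 1 library. With the replicate block, which the pairing check does not call for, 8 instead of 9 genes were called from day 7 to day 21 in control cells, since Egln3 moved to an adjusted p of 0.0580, and no other call of the 10 genes changed; 9 of 20 libraries correlated best with their own number. Depth limits Hif3a, where 3 counts over a group equal 0.0364 to 0.106 CPM.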

Other observations

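Other proteins of the same folds were read from lists chosen by function, with earlier results of these data known. Of 11 other bHLH-PAS factors, relatives of the HIF subunits, 1 was called higher and 1 lower in fresh roxadustat cells, 3 higher and 3 lower after 7 days, and 5 higher and 3 lower after 21 days, beside 2.73% and 4.11%, 24.1% and 23.6%, and 30.0% and 32.9% of all genes. The day 7 share was thus near that of all genes. At day 7 DESeq2 called 2 higher and 2 lower, beside 3939 and 4827 of all 18731 genes. There limma voom called 2 higher and 3 lower, beside 4491 and 4507. Sim1 was at 71.1 CPM in control and 68.5 CPM in roxadustat cells at day 0, then lower with roxadustat at day 7, at 5.42 against 3.72 CPM (-0.54 ± 0.12, adjusted p = 0.000454, edgeR), and higher at day 21, at 1.43 against 10.9 CPM (2.94 ± 0.14, adjusted p = 1.49e-16). The aryl hydrocarbon receptor gene Ahr was higher at day 7 (0.44 ± 0.07) and day 21, at 10.6 against 20.2 CPM (0.93 ± 0.08, adjusted p = 9.37e-11, edgeR). Sim2 was lower at day 0, at 24.8 against 17.1 CPM (-0.53 ± 0.16, adjusted p = 0.0443, edgeR), a call lost with library size alone (-0.48) and the upper quartile (-0.51), and higher at day 7 (0.70 ± 0.27) and at day 21, at 0.187 against 1.62 CPM (3.05 ± 0.32, adjusted p = 3.36e-09). The clock gene Arntl was higher on all 3 days (0.67 ± 0.12, 0.27 ± 0.08 and 0.45 ± 0.09), Npas1 was higher at day 21 (1.39 ± 0.46), and Npas2 was lower at day 21 (-1.80 ± 0.26). Clock was lower at day 21 (-0.20 ± 0.05) but higher, at 0.15, with library size alone. Npas4, under 1 CPM, was lower at days 7 (-2.29 ± 0.77) and 21 (-2.32 ± 0.68), and lost its day 7 call without control replicate 2 (-2.10). Ahrr, also under 1 CPM, was lower at day 7 (-0.86 ± 0.34), a call that was lost without control replicate 2 (-0.88) or 4 (-0.66) and without roxadustat replicate 1 (-0.79), 3 (-0.85) or 4 (-0.87). It was also lost with DESeq2 (-0.91, adjusted p = 0.0712). In edgeR it was lost with library size alone (-0.80, adjusted p = 0.0558) and with no filter on low counts (-0.87, adjusted p = 0.0637).

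Of 5 other oxygen-dependent dioxygenases 0 were called at day 0 by edgeR, DESeq2 and limma voom, and 0 at an unadjusted p under 0.05. At day 7, 2 were higher and 2 lower, and at day 21, 2 were higher and 3 lower, beside 24.1% and 23.6%, and 30.0% and 32.9% of all genes. With library size alone there were 3 and 2 at day 21, where 9372 of all 18731 genes were called higher and 3549 lower. Ogfod2 was higher at day 7, at 14.0 against 19.6 CPM (0.48 ± 0.08, adjusted p = 8.56e-06, edgeR), and at day 21 (0.57 ± 0.08), as was Ogfod1 (0.21 ± 0.05 and 0.39 ± 0.06). Ado was lower at day 7 (-0.33 ± 0.05) and at day 21 (-0.15 ± 0.06), where it was higher, at 0.20, with library size alone. Cysteine dioxygenase, Cdo1, was lower at day 7, at 10.3 against 3.50 CPM (-1.54 ± 0.16, adjusted p = 6.04e-08, edgeR), and at day 21 (-1.02 ± 0.18), and the transmembrane prolyl hydroxylase P4htm at day 21, at 5.20 against 2.30 CPM (-1.11 ± 0.19).

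The hydroxylases use 2-oxoglutarate and release succinate. Of 13 enzymes that make or use 2-oxoglutarate, succinate or fumarate, 1 was called higher and 2 lower in fresh cells. After 7 days 2 were higher and 6 lower, and after 21 days 2 were higher and 7 lower. The shares of all genes were 2.73% and 4.11%, 24.1% and 23.6%, and 30.0% and 32.9% on the 3 days. With library size alone there were 7 higher and 2 lower at day 21, where 9372 of all 18731 genes were called higher and 3549 lower. Those called higher were D2hgdh at days 0 (0.43 ± 0.12) and 7 (0.32 ± 0.11), Ogdh at days 7 (0.32 ± 0.07) and 21 (0.27 ± 0.07), and Idh3g at day 21 (0.23 ± 0.07). Cytosolic Idh1 was lower with roxadustat at day 0, at 937 against 499.6 CPM (-0.91 ± 0.14, adjusted p = 0.000269, edgeR), and at day 21, at 261 against 84.7 CPM (-1.62 ± 0.10, adjusted p = 1.72e-11), and was 135 against 151 CPM at day 7, which was not called. Mitochondrial Idh2 was lower at day 0 (-0.26 ± 0.08, adjusted p = 0.0394, edgeR), a call lost with library size alone (-0.20) and the upper quartile (-0.24), and at day 7, at 88.5 against 51.9 CPM (-0.77 ± 0.06, adjusted p = 1.02e-11, edgeR), and was 43.9 against 42.7 CPM at day 21, which was not called (adjusted p = 0.560). Of the subunits of mitochondrial Idh3, Idh3a was lower at day 7 (-0.63 ± 0.07, adjusted p = 1.00e-08, edgeR), and Idh3b at day 7 (-0.32 ± 0.06) and day 21, at 79.8 against 56.0 CPM (-0.51 ± 0.06).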
